A study of Mus musculus with 6 samples.

Results

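The matrix metalloproteinases (Mmp), the ADAM sheddases (Adam), the secreted ADAMTS proteases (Adamts) and the protease-free ADAMTS-like proteins (Adamtsl) were followed in the mouse kidney after ischemia and reperfusion. Members were all genes whose array symbol starts with Mmp, Adam, Adamts or Adamtsl and a number, except Adam17. The rule found 65 of the 18193 genes named on the array: 18 Mmp, 27 Adam, 15 Adamts and 5 Adamtsl genes. Each gene was read from its probe set with the highest mean intensity among those annotated to that gene alone. In 34 members that mean was under an intensity of 64, and these are called dim below. The other 31 carry the values.

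The kidneys came from male FVB/N mice aged 6 to 8 weeks and weighing 22 to 26 g, under pentobarbital anaesthesia. The renal pedicle of one side was clamped for 60 or 45 min and released, and in the 0 min kidneys it was exposed with no clamp time. Kidneys were taken 3 days or 1 day later, and whole-kidney RNA was hybridised to 1 Affymetrix array for each of the 6 combinations of clamp time and day. The series title concerns TNFα blockade, and all 6 kidneys analysed here carry labels for clamp time and day alone. The labels do not say whether an array holds 1 animal or a pool. No combination has a repeat array, so SE and p-values do not measure the spread among kidneys treated alike. In the comparisons of clamp times they rest on how far the differences between clamp times vary between the 2 days. In the comparisons of days they rest on the difference between 45 and 60 min kidneys. The state of the kidney on the opposite side is not given.

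The active enzymes of these families use a zinc ion to cut other proteins, while the ADAMTS-like proteins and a number of ADAMs, many of them from the testis, lack the zinc-binding active site. Mmps cut collagens, fibronectin and other parts of the extracellular matrix, membrane-bound ADAMs cut growth factors, cytokines and adhesion molecules off the cell surface, and ADAMTS enzymes trim proteoglycans such as versican. They are made as inactive precursors that other proteases or convertases switch on, and TIMP proteins block them. In the injured kidney such enzymes are known from infiltrating leukocytes, from fibroblasts and from damaged tubule cells.

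All 6 arrays had been scaled to the same trimmed mean, and their median intensities lay between 81.1 and 95.0. The Actb control, whose 3' signal over its 5' signal measures RNA integrity, read between 0.49 and 1.03 (log2 ratio) on day 3 and between 1.08 and 1.12 on day 1. The 60 min day 3 array read lowest, and the part of this difference in any result was not tested. Markers of the tubule were bright on every array, with summed intensities of 42943 to 73694 for 5 proximal tubule genes. None of the 5 testis markers passed the filter on low intensity. Differences below are on the log2(intensity + 16) scale, and 2-fold below means a difference of 1 on it. This scale understates the change of dim genes. Mmp7 at 45 min on day 3, for example, read 65.8 against 27.3 at 0 min, a difference of 0.92.

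The first comparison set the 45 and 60 min kidneys against the 0 min kidneys, and it asks which proteases differed after clamping. The sheddases Adam8, Adam12 and Adam19, the gelatinases Mmp2 and Mmp9, the membrane-anchored Mmp14 and Mmp17, Mmp11, Mmp12, Adamts1, Adamts4 and Adamts12 were all higher after clamping on average, by 0.74 to 1.49. None of them passed the test across all genes. With limma and Benjamini-Hochberg adjustment, 0 of the 36 members that passed the filter had an adjusted p under 0.05, as did 0 of all 12734 genes tested (0%). At an unadjusted p under 0.05, 15 of these 36 members were higher after clamping, and 9.56% of all genes tested were. No member was lower, against 5.03% of all genes. A gene that is bright in 1 group alone can pass the filter through that group, so these counts describe the members and do not test them. The median difference was 0.40 for the members and 0.01 for all genes tested. All 4 clamped arrays lay above both 0 min arrays for 12 members, against 10.9% of all genes, and lay below both for 0 members, against 8.94%.

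Calls appeared under some other settings. The first of these left out an array, so 45 min was read from day 1 alone and fewer arrays measured the spread. Without the 45 min day 3 array, limma called 200 genes, and among them were Adam8 (difference 1.83, adjusted p = 0.0316), Adam12 (1.49, adjusted p = 0.0366) and Adamts12 (1.46, adjusted p = 0.0424). With a prior variance that follows intensity, limma called 75 genes, and Adamts1 was the member among them (difference 0.86, adjusted p = 0.0421).

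**Figure D1:**
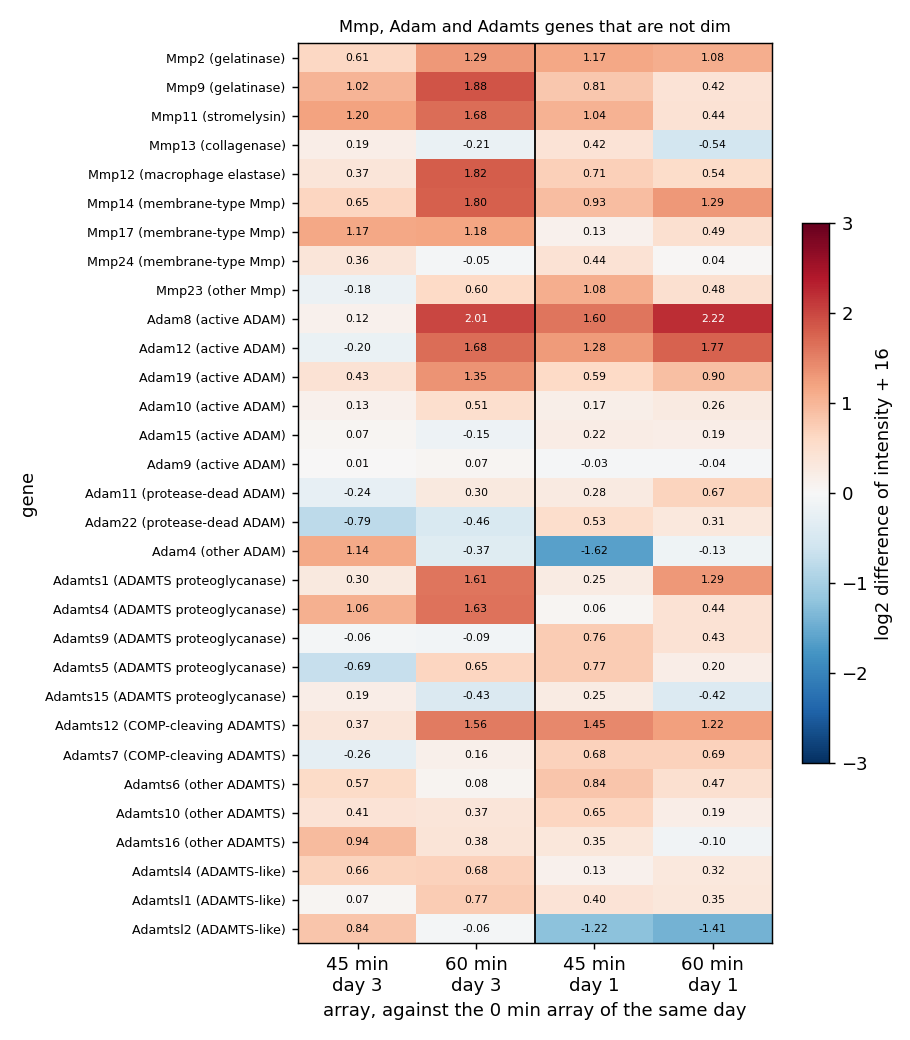
Log2 difference of intensity + 16 between each clamped array and the 0 min array of the same day, for the 31 members that are not dim, in order of role. Columns are the 45 and 60 min arrays of day 3 and then of day 1, and each cell prints its value. Adam8 has the highest cell, 2.22 at 60 min on day 1, and 45 min on day 3 is the palest column for Adam8 and Adam12.

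Cell type markers differed along with these genes. The summed intensity of 11 macrophage markers was 10570, 15526 and 37929 at 0, 45 and 60 min on day 3, and 6121, 10116 and 10093 on day 1. For 9 fibroblast and myofibroblast markers the sums were 21343, 32838 and 58274 on day 3 and 12248, 36120 and 35428 on day 1. The sums weigh bright genes most, and Lyz2 alone gave 17100 of the 37929. The median difference of clamped from 0 min kidneys was 0.95 for the macrophage list and 0.90 for the fibroblast list. The lists were not uniform at 60 min on day 1. There, 4 of 11 macrophage and 6 of 9 fibroblast markers were at least 2-fold higher than at 0 min. Csf1r (-0.33), Itgam (-0.18), Dcn (-0.54) and Lum (-0.18) were lower.

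The 10 neutrophil markers summed to 1191, 1841 and 1984 on day 3 and to 1079, 1288 and 1600 on day 1. Of these, 5 passed the filter, with a median difference of clamped from 0 min kidneys of 0.51. Mpo, Elane, Camp, Ltf and Cxcr2 did not. The endothelial list had a median difference of 0.00, the proximal tubule list of -0.31 and the list for the loop of Henle and distal nephron of -0.46. The part of these markers in the protease values was not tested. In whole-kidney RNA, more cells of a type and more RNA per cell cannot be told apart.

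**Figure D2:**
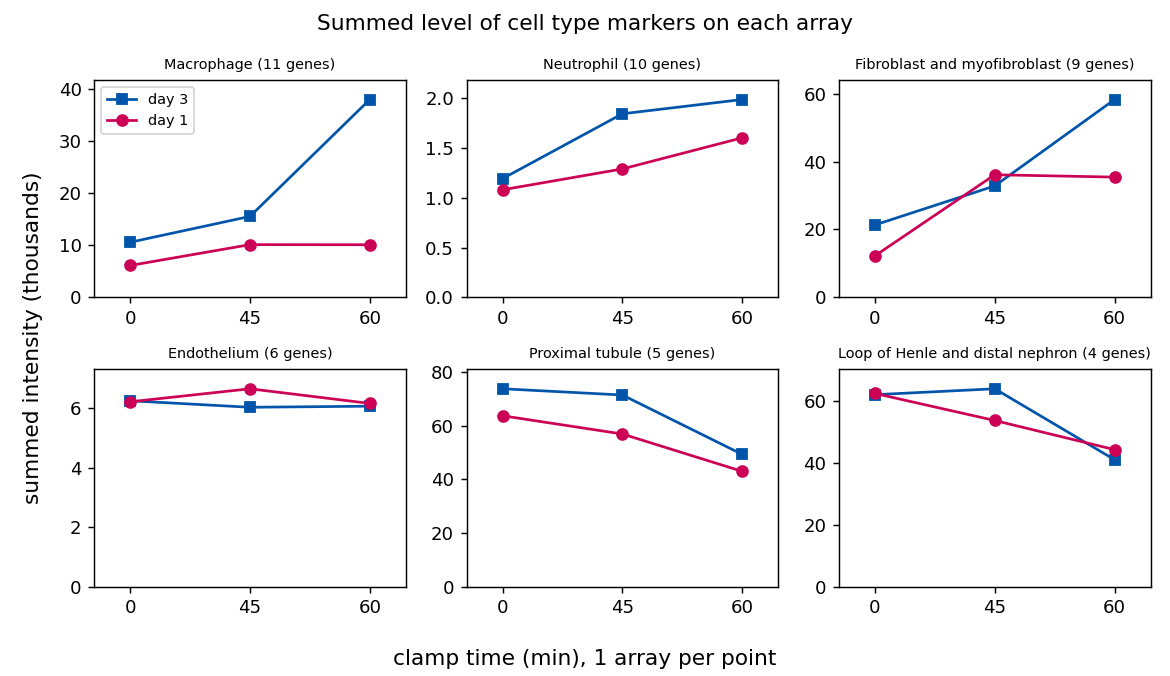
Summed intensity of the marker genes of 6 cell types against clamp time in min, with 1 array per point and a line for each day. The macrophage sum at 60 min is 37929 on day 3 and 10093 on day 1, and the endothelial sums stay between 6024 and 6645.

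The membrane sheddases divided into 3 that reached an unadjusted p under 0.05 (Adam8, Adam12 and Adam19) and 3 that did not (Adam9, Adam10 and Adam15). Adam8, a sheddase of leukocytes and other cells that cuts adhesion molecules, had the largest difference of all members that are not dim. Its intensity was 149, 163 and 650 at 0, 45 and 60 min on day 3, and 69.4, 243 and 382 on day 1. The 4 clamped arrays lay above both 0 min arrays, though the 45 min day 3 kidney was close to its 0 min partner. Clamped kidneys were higher by 1.49 ± 0.33 (SE; limma adjusted p = 0.210).

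Adam12, known for cutting the growth factor HB-EGF from the cell surface and found on activated fibroblasts, was also highest at 60 min on each day. It read 249, 214 and 832 at 0, 45 and 60 min on day 3, and 155, 399 and 568 on day 1. The groups overlapped, because the 45 min day 3 kidney lay below the 0 min kidney of that day. The clamped kidneys differed by 1.13 ± 0.34 (SE; limma adjusted p = 0.269), a second Adam12 probe set gave 1.44, and without the 0 min day 1 array the difference was 0.74.

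Adam19, a sheddase of neuregulin, did not overlap between groups. Its intensities were 128, 179 and 351 at 0, 45 and 60 min on day 3, and 118, 186 and 234 on day 1. The difference was 0.82 ± 0.17 (SE; limma adjusted p = 0.210). A dim second Adam19 probe set gave 0.10, with groups that overlapped, and the mean of both was 0.46.

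Adam10, the main sheddase of Notch receptors, was bright on every array. It measured 3954, 4339 and 5627 at 0, 45 and 60 min on day 3, and 4101, 4620 and 4900 on day 1. The clamped kidneys were higher by 0.27 ± 0.14 (SE; limma adjusted p = 0.426). The other Adam10 probe sets above 64 gave 0.28 and 0.02, and the mean of all its probe sets gave -0.20, since a dim one with a mean intensity of 19.9 gave -1.35. Adam9 and Adam15, a pair of broadly expressed sheddases, differed by 0.00 ± 0.12 and 0.08 ± 0.14 (SE). For Adam15 a further probe set gave -0.37, in the opposite direction.

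**Figure D3:**
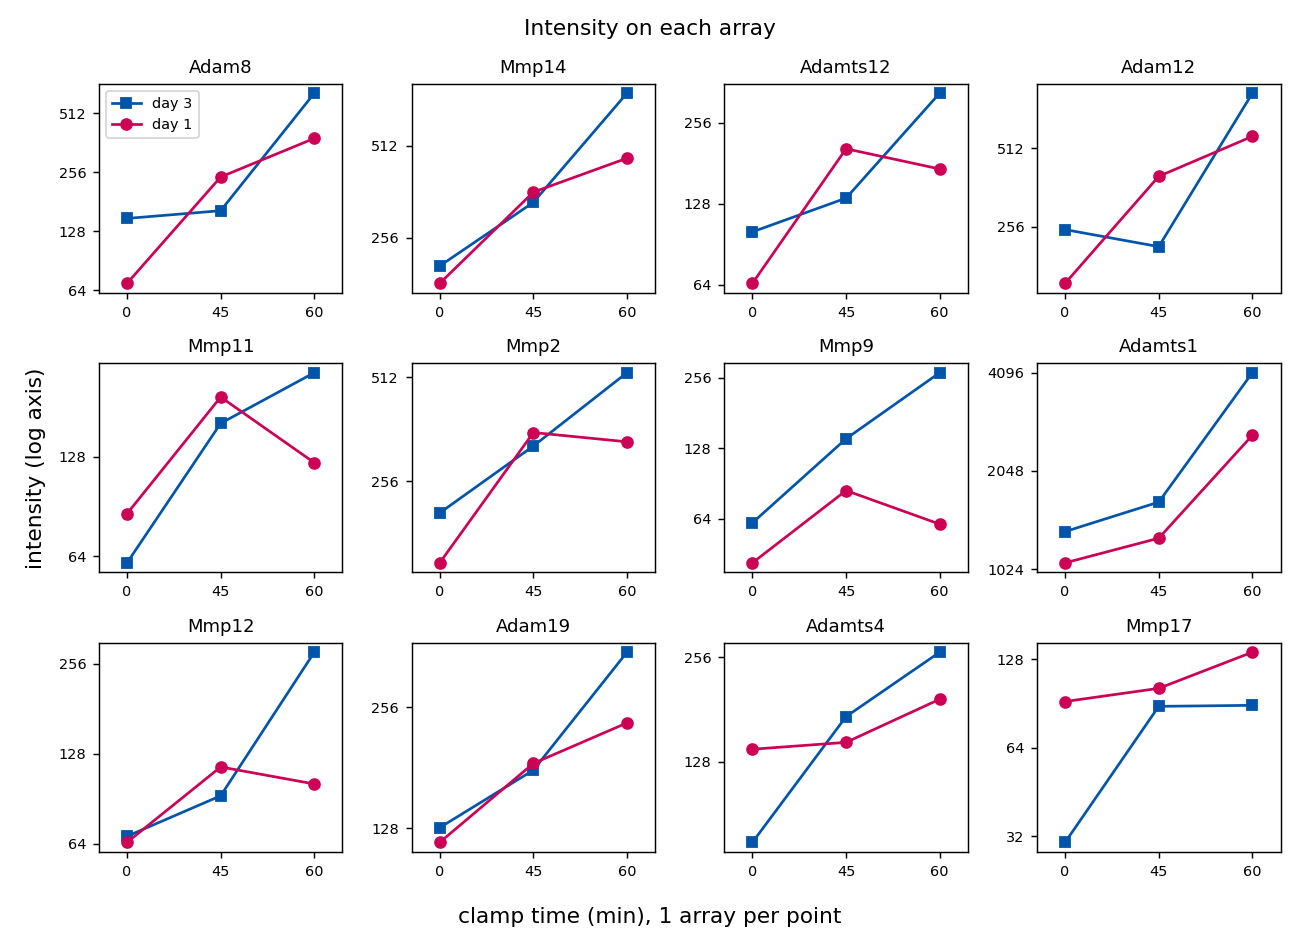
Intensity on a log axis against clamp time in min for the 12 members that are not dim with the largest differences of clamped from 0 min kidneys, with 1 array per point and a line for each day. Every gene but Mmp17 stands highest at 60 min on day 3. Mmp11, Mmp17 and Adamts4 stand lowest in the 0 min day 3 kidney.

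Among the matrix metalloproteinases, the membrane-anchored Mmp14 had the largest difference. Mmp14 cuts collagen at the cell surface and switches on the precursor of Mmp2. It read 207, 334 and 762 at 0, 45 and 60 min on day 3, and 181, 361 and 467 on day 1. Every clamped array exceeded both 0 min arrays, and the difference was 1.17 ± 0.20 (SE; limma adjusted p = 0.175). A further pair of Mmp14 probe sets gave 0.37 and 0.92, and in both of them the groups overlapped.

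Mmp2, gelatinase A, which degrades denatured collagen and the collagen of basement membranes, showed the same separation. Its intensity was 207, 323 and 528 at 0, 45 and 60 min on day 3, and 148, 354 and 333 on day 1. It was higher after clamping by 1.04 ± 0.20 (SE; limma adjusted p = 0.189), and a second probe set gave 0.71. In that second probe set the groups overlapped, with 166 at 60 min on day 1 and 205 at 0 min on day 3.

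Mmp9, gelatinase B, is stored by neutrophils and made by macrophages and other cells. It read 61.4, 141 and 270 at 0, 45 and 60 min on day 3, and 41.4, 84.4 and 60.6 on day 1. The 60 min day 1 kidney lay just below the 0 min day 3 kidney, so the groups overlapped. The difference was 1.03 ± 0.33 (SE; limma adjusted p = 0.283), and it was 0.61 without the 0 min day 3 array.

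Mmp11, stromelysin-3, is made mainly by fibroblasts in tissue that is being rebuilt. It measured 61.1, 162 and 231 at 0, 45 and 60 min on day 3, and 86.1, 194 and 123 on day 1. Both days were higher after clamping with no overlap, by 1.09 ± 0.29 (SE; limma adjusted p = 0.236).

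Mmp12, the elastase of macrophages, was 67.9, 92.7 and 280 at 0, 45 and 60 min on day 3, and 64.8, 116 and 102 on day 1. All clamped arrays were above the 0 min arrays, and the 60 min day 3 kidney stood apart from the rest. The difference was 0.86 ± 0.35 (SE; limma adjusted p = 0.356), and it was 0.50 without that 60 min day 3 array.

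Mmp17, held on the cell surface by a lipid anchor, read 30.5, 88.5 and 89.2 at 0, 45 and 60 min on day 3, and 91.9, 102 and 135 on day 1. The groups overlapped, and the low 0 min day 3 kidney gave the wide gap on that day. The difference was 0.74 ± 0.24 (SE; limma adjusted p = 0.284), and it became 0.31 on leaving out the 0 min kidney of day 3, 1.17 on leaving out that of day 1, and 0.46 with a pseudocount of 64.

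The ADAMTS enzymes that cut proteoglycans did not move as one group. Of the 5 that are not dim, Adamts1 and Adamts4 were higher after clamping at an unadjusted p under 0.05, and Adamts5, Adamts9 and Adamts15 did not reach it. Adamts1, which cuts versican and aggrecan, read 1334, 1644 and 4104 at 0, 45 and 60 min on day 3, and 1069.7, 1273 and 2637 on day 1. Both 60 min kidneys stood far above the rest, while the 45 min day 1 kidney lay under the 0 min day 3 kidney. The difference was 0.86 ± 0.14 (SE; limma adjusted p = 0.165).

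Adamts4, an aggrecanase, was 74.8, 173 and 265 at 0, 45 and 60 min on day 3, and 139, 146 and 194 on day 1. Clamped arrays lay above both 0 min arrays by a narrow margin on day 1. The difference was 0.80 ± 0.28 (SE; limma adjusted p = 0.311), a second probe set gave 1.39, and the difference became 0.25 on leaving out the 0 min kidney of day 3 and 1.34 on leaving out that of day 1.

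Adamts5, the other main aggrecanase, read 767, 471 and 1209 at 0, 45 and 60 min on day 3, and 456, 792 and 527 on day 1. No order by clamp time was shared by both days. Adamts9 was 715, 685 and 672 on day 3 and 453, 777 and 615 on day 1, and Adamts15 was 420, 480 and 308 on day 3 and 357, 428 and 263 on day 1, both at 0, 45 and 60 min. Adamts15 had its lowest value at 60 min on each day.

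Adamts12, a secreted protease that cuts the cartilage matrix protein COMP, did separate the groups. It measured 101, 134 and 329 at 0, 45 and 60 min on day 3, and 64.9, 205 and 172 on day 1. It was higher by 1.15 ± 0.31 (SE; limma adjusted p = 0.247). A dim second Adamts12 probe set, with a mean intensity of 11.7, gave -0.16, and the mean of both was 0.49. Its relative Adamts7 was close to the dim limit, with a mean of 66.4.

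Set array by array against the matching 0 min kidney, the number of members at least 2-fold higher was largest at 60 min on day 3. There, 13 of 36 members passed 2-fold upward, against 7.58% of all genes, and 0 passed downward, against 2.32%. These 13 were Adam8, Adam12, Adam19, Mmp2, Mmp7, Mmp9, Mmp11, Mmp12, Mmp14, Mmp17, Adamts1, Adamts4 and Adamts12. At 45 min on day 3 there were 5 upward (1.5% of all genes) and 0 downward (0.785%). On day 1, 60 min gave 6 upward (4.39%) and 1 downward (1.71%), and 45 min gave 6 upward (3.57%) and 2 downward (1.06%). These counts rest on 1 array a side and have no test.

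The contrasts of 60 with 0 min on day 3 and on day 1 share no array. Of the 31 members that are not dim, 25 had the same sign on both days, and across these genes r was 0.71. Across all genes tested, 8964 of 12734 had the same sign and r was 0.66. Genes are not independent replicates, and each contrast holds 1 array a side. Mmp9, Mmp11, Mmp12, Mmp17 and Adamts4 were over 2-fold higher on day 3 but differed by 0.42 to 0.54 on day 1. Adam19 differed by 1.35 on day 3 and 0.90 on day 1, and the dim Mmp7 by 1.06 and -0.26. Adam8, Adam12, Mmp2, Mmp14, Adamts1 and Adamts12 were over 2-fold higher on both days.

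**Figure D4:**
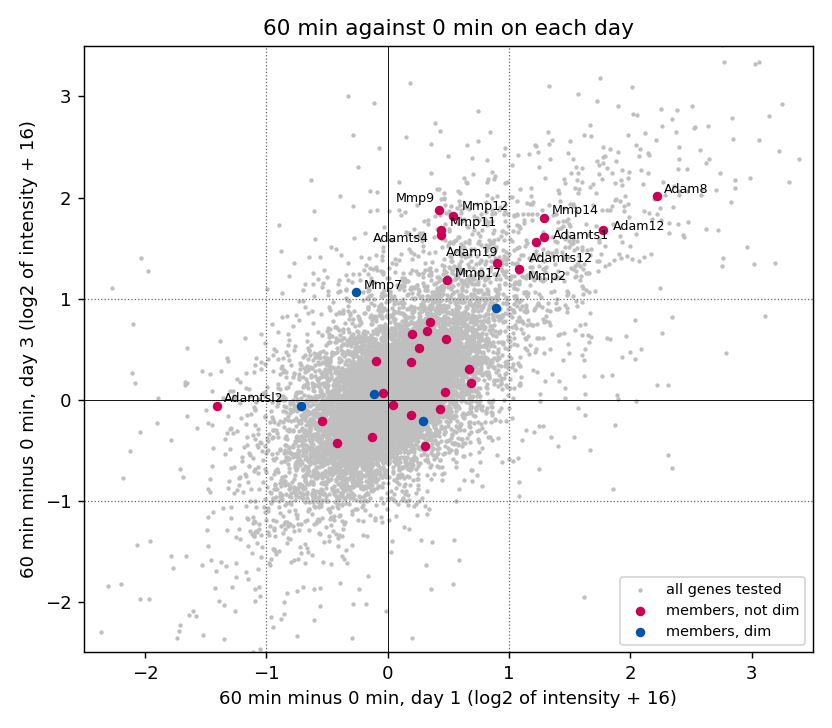
Log2 difference of intensity + 16 between 60 and 0 min on day 3 (vertical axis) against the same on day 1 (horizontal axis), with all genes tested in grey, members that are not dim in red and dim members in blue. Dotted lines mark 2-fold, and 35 genes lie outside the plotted range. Mmp9, Mmp12, Mmp11, Mmp17, Adamts4, Adam19 and the dim Mmp7 lie above 1 on the vertical axis and left of 1 on the horizontal one.

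The second comparison set 60 min against 45 min of clamping. Adamts1, Adam8, Adam12 and Mmp14 were higher after the longer clamp, and the collagenase Mmp13 was lower. With limma 0 of 36 members passed an adjusted p under 0.05, as did 0% of all genes. At an unadjusted p under 0.05, 6 members were higher (7.76% of all genes) and 4 were lower (5.29%), and the lower ones were Mmp13, Mmp24, Adamts6 and Adamts15. The median difference was 0.10 for the members and 0.05 for all genes tested.

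For Adamts1 the 60 and 45 min kidneys read 4104 and 1644 on day 3, and 2637 and 1273 on day 1. Adamts1 was higher after the longer clamp on both days, by 1.18 ± 0.16 (SE; limma unadjusted p = 0.000734, adjusted p = 0.306). The differences for the others were 1.26 ± 0.38 for Adam8, 1.19 ± 0.40 for Adam12 and 0.75 ± 0.23 for Mmp14 (SE). Without the 45 min day 3 array these were 0.57 for Adam8, 0.47 for Adam12 and 0.48 for Mmp14. Without the 45 min day 1 array they were 1.95 for Adam8 and 1.90 for Adam12, and Mmp14 was 0.43 without the 60 min day 3 array.

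Mmp13, which cuts fibrillar collagen, read 93.9 and 129 in the 60 and 45 min kidneys of day 3, and 67.6 and 146 in those of day 1. Its 0 min kidneys, at 111 on day 3 and 105 on day 1, lay between the clamped ones on both days. The difference of 60 from 45 min was -0.68 ± 0.19 (SE; limma adjusted p = 0.349).

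By single arrays, 60 against 45 min on day 3 gave 7 members at least 2-fold higher (5.96% of all genes) and 1 lower (2.4%). On day 1 it gave 2 higher (1.02%), which were Adam4 and Adamts1, and 0 lower (0.982%). Adamts1 was the one member that passed 2-fold upward on both days. Adam4, an ADAM known from the testis, passed in opposite directions on the 2 days.

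The third comparison set clamped kidneys of day 3 against those of day 1. Mmp9 was higher on day 3, and of the members that are not dim it alone had an unadjusted p under 0.05. It read 141 and 270 on day 3 against 84.4 and 60.6 on day 1 at 45 and 60 min, so the days did not overlap. The difference was 1.27 ± 0.35 (SE; limma unadjusted p = 0.0154, adjusted p = 0.997), and it was 0.84 without the 60 min day 3 array and 0.80 with the mean of the Mmp9 probe sets. The 0 min kidneys were also higher on day 3, at 61.4 against 41.4. A dim second Mmp9 probe set did overlap between days. At 45 and 60 min it read 29.4 and 119 on day 3 against 50.2 and 41.9 on day 1.

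With limma 0 of 36 members passed an adjusted p under 0.05 in this comparison, as did 0% of all genes. Mmp9 and the dim neutrophil collagenase Mmp8 were higher at an unadjusted p under 0.05 (1.75% of all genes), and 0 members were lower (2.35%). Mmp8 read 73.9 and 67.2 on day 3 and 38.5 and 48.0 on day 1 at 45 and 60 min.

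The other named differences between days changed when single arrays were left out, which also leaves the days with unlike clamp times. Adam4 differed by 1.09 ± 0.70 (SE), with 162 and 46.8 on day 3 and 13.8 and 67.4 on day 1 at 45 and 60 min. It became 0.33 on leaving out the 45 min kidney of day 3 and 0.34 on leaving out that of day 1. Mmp12 differed by 0.53 ± 0.50 and Adamts1 by 0.50 ± 0.56 (SE), and without the 60 min day 3 array these became -0.19 and -0.16. Adamts1 was also -0.02 without the 45 min day 1 array. At the same clamp time, however, Adamts1 was higher on day 3 both at 45 min (0.36) and at 60 min (0.63). For Mmp12 these differences were -0.28 and 1.33. Mmp23, a membrane-bound Mmp, differed by 0.45 ± 0.36 (SE), with 139 and 250 on day 3 and 167 and 105 on day 1 at 45 and 60 min. It became 0.06 on leaving out the 60 min kidney of day 3 and 0.15 on leaving out that of day 1.

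By single arrays, day 3 against day 1 gave 4 members at least 2-fold higher at 60 min (3.01% of all genes) and 0 lower (1.09%). Those 4 were Mmp9, Mmp12, Mmp23 and Adamts5. At 45 min it gave 1 higher (1.19%), which was Adam4, and 0 lower (2.06%). The 0 min kidneys themselves gave 2 higher (1.71%), Mmp23 and Adam22, and 3 lower (1.4%), Mmp7, Mmp17 and Adamtsl2. Those 5 genes differed by at least 2-fold between the days with no clamp time.

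The last test asked whether the effect of clamping differed between days. The clamped kidneys lay on opposite sides of the 0 min kidney on the 2 days for 5 of 36 members, close to the share of all genes (14.1%). With limma 0 of 36 members passed an adjusted p under 0.05, as did 0% of all genes. At an unadjusted p under 0.05, Mmp7 and Adamtsl2 had a higher clamp effect on day 3 (1.18% of all genes), and Adam22 a lower one (1.04%). Adamtsl2, which binds microfibrils and lacks a protease domain, read 95.2, 184 and 90.4 at 0, 45 and 60 min on day 3 and 308, 123 and 106 on day 1. Its high value was the 0 min kidney of day 1. Adam22, an ADAM without protease activity, was 332, 186 and 238 on day 3 and 151, 225 and 192 on day 1. The changes of the effect were 1.71 ± 0.59 for Adamtsl2 and -1.04 ± 0.37 for Adam22 (SE; limma adjusted p = 1 for both).

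Mmp7, matrilysin, is an Mmp of epithelia that injured kidney tubules are known to make. It was dim, at 27.3, 65.8 and 74.6 at 0, 45 and 60 min on day 3 and 76.0, 57.4 and 60.8 on day 1. Clamped kidneys were higher on day 3 and lower on day 1. Over both days the difference was 0.35 ± 0.31 (SE; limma adjusted p = 0.633), and it became -0.29 on leaving out the 0 min kidney of day 3 and 0.99 on leaving out that of day 1.

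The 34 dim members include most of the Adam genes, 18 of 27, and 15 of the 16 that are mostly known from testis and epididymis. In 19 of the 34 every array read under 32, and in 27 every array read under 64. Just under the limit of 64 were Mmp7 at 60.3, Mmp8 at 57.5 and Mmp3 at 55.5, and just above it were Adamts7 at 66.4, Adam4 at 71.8 and Adamts16 at 86.9. Of the dim members, 5 passed the filter for the tests: Mmp3, Mmp7, Mmp8, Adamts3 and Adamtsl3. A low intensity may reflect the probe set as well as the transcript, so dim members are not called absent. Mmp3, stromelysin-1, read 29.7, 31.6 and 69.7 at 0, 45 and 60 min on day 3 and 44.9, 60.2 and 96.8 on day 1, and was highest at 60 min on each day.

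Most of the dim Mmps, 7 of 9, lie side by side in the genome. In the RefSeq annotation of assembly GRCm38.p6, 9 members neighbour each other on chromosome 9: Mmp13, Mmp12, Mmp1b, Mmp3, Mmp1a, Mmp10, Mmp8, Mmp20 and Mmp7. Of these, Mmp12 and Mmp13 were not dim. Collagenase and stromelysin genes of this cluster are textbook targets of AP-1, a factor of Jun and Fos proteins. The letters TGANTCA, which read alike on both strands and cover the usual AP-1 motif, were therefore looked for in the 250 bases before each annotated transcript start, of which a gene can have several. RefSeq promoters were at hand for 36 members, with 41 starts in all, and 10 of the members held the letters before at least 1 start (27.8%), against 7.8% of the 27025 genes with a promoter. All of those 10 members but Adam19 and Adam25 lie in the chromosome 9 cluster, so the 27.8% does not describe the members at large. Of the 16 members with a promoter that are not dim, 3 held the letters (18.8%).

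The windows of these 3 and of 3 dim neighbours are shown, so that cluster genes above and below the dim limit can be set side by side. Sequences run 5′ to 3′ on the gene's strand, with the motif in capitals and 20 bases on each side. They are from RefSeq on GRCm38.p6, all on the plus strand. Those of Mmp12 and Adam19 precede an alternative start that lies inside the annotated gene, and the others precede the gene's first start.
Mmp13, chr9:7272459-7272505, motif beginning 35 bases before the start: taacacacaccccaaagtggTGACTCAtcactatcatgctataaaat
Mmp12, chr9:7347310-7347356, motif beginning 44 bases before the start: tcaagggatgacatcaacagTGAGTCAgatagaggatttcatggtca
Adam19, chr11:46055833-46055879, motif beginning 131 bases before the start: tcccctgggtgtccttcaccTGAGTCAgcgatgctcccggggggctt
Mmp3, chr9:7445756-7445802, motif beginning 46 bases before the start: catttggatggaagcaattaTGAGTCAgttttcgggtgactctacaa
Mmp10, chr9:7502259-7502305, motif beginning 63 bases before the start: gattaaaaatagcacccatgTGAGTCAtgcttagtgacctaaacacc
Mmp7, chr9:7692007-7692053, motif beginning 63 bases before the start: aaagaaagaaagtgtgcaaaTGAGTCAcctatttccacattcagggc
The match is a description of letters and not of binding. The genes that carry it did not share a pattern on these arrays: Mmp12 and Adam19 were higher after clamping by 0.86 and 0.82, while Mmp13 differed by -0.04. Of the 12 members with the largest differences, 10 are outside this set, either with no match in this window or with no promoter at hand.

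The proteases act with inhibitors, activators and substrates, and 31 of 32 such partners had a probe set of their own, 27 of them past the filter. Spp1 was not analysed here. At an unadjusted p under 0.05 with limma, 8 of these 27 partners were higher after clamping (9.56% of all genes tested) and 1 was lower (5.03%). With limma 0 passed an adjusted p under 0.05, as did 0% of all genes. Their median difference was 0.33, against 0.01 for all genes tested. In the contrast of 60 with 45 min, 7 were higher (7.76%) and 2 were lower (5.29%), with a median of 0.34 against 0.05.

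Timp1, a secreted inhibitor of most Mmps, had a larger difference than any member that passed the filter. It read 281, 573 and 1339 at 0, 45 and 60 min on day 3 and 159, 785 and 1368 on day 1. Clamped arrays lay above both 0 min arrays, by 2.09 ± 0.27 (SE; limma adjusted p = 0.151), and limma called Timp1 without the 45 min day 3 array (2.29, adjusted p = 0.0381) and with a prior variance that follows intensity (adjusted p = 0.0326).

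Vcan, the versican core protein that ADAMTS enzymes cut, was 76.1, 179 and 261 on day 3 and 76.1, 179 and 238 on day 1, each at 0, 45 and 60 min. Its arrays matched closely between days, and it was higher by 1.30 ± 0.13 (SE; limma adjusted p = 0.131). It too was called by limma without the 45 min day 3 array (1.32, adjusted p = 0.0409), while the mean of its probe sets gave 0.32. Fn1, which encodes the matrix protein fibronectin, read 1586, 2579 and 6760.2 on day 3 and 1462, 3188 and 3126 on day 1, a difference of 1.24 ± 0.31 (SE).

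In the plasmin system, which switches on Mmp precursors, Plaur and Plat were higher after clamping at an unadjusted p under 0.05, and urokinase itself, Plau, differed by 0.56 and did not reach it. Plaur, the urokinase receptor, was 226, 342 and 899 at 0, 45 and 60 min on day 3 and 158, 204 and 487 on day 1. Plat, tissue plasminogen activator, was 1287, 1931 and 4403 on day 3 and 1461, 1772 and 2604 on day 1. Each stood highest at 60 min on day 3, and the differences were 1.09 ± 0.14 for Plaur and 0.86 ± 0.22 for Plat (SE). Plat was 0.55 without the 0 min day 3 array.

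Pcsk6, a convertase that cuts precursors of several secreted proteins, ran the other way. It read 395, 336 and 118 at 0, 45 and 60 min on day 3 and 429.5, 367 and 172 on day 1. Both 60 min kidneys were low, and the difference of clamped from 0 min kidneys was -0.83 ± 0.15 (SE; limma adjusted p = 0.183).

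**Figure D5:**
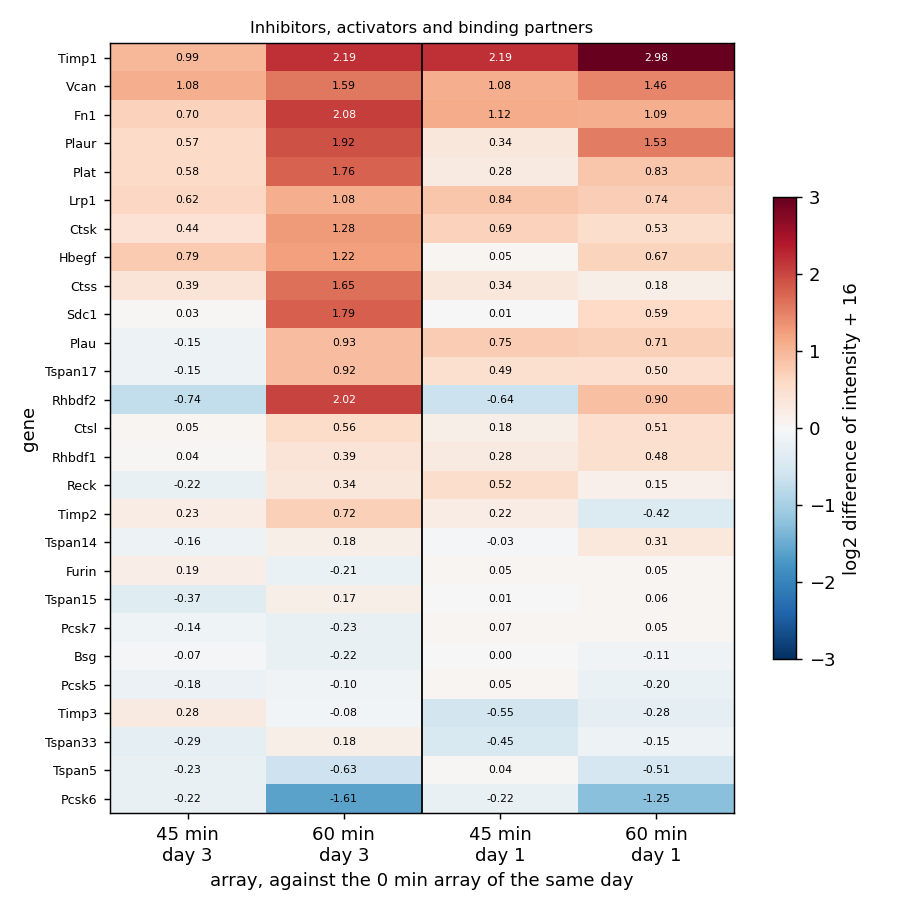
Log2 difference of intensity + 16 between each clamped array and the 0 min array of the same day, for the 27 inhibitors, activators and binding partners that passed the filter. Columns are the 45 and 60 min arrays of day 3 and then of day 1. Timp1 reaches 2.98 at 60 min on day 1, and Pcsk6 reaches -1.61 at 60 min on day 3.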

How the data were processed

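Per the labels, total RNA was extracted with Trizol and biotinylated cRNA was prepared with an Affymetrix 3' IVT kit. The authors deposited 1 linear intensity for each probe set of each array, and the submitters' processing notes name Affymetrix Expression Console. The version of that tool and the probe summary method were not given in the sources used here. The 2% trimmed mean was 500.003 on every array, so the arrays had been scaled to a common target.

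Of 45101 probe sets, 64 were controls, 34945 had 1 symbol in the platform annotation, 932 had several and 9160 had none. Of those with 1 symbol, 34741 had a gene ID in the RefSeq table, which changed 0 symbols. Members had 108 probe sets with 1 symbol. Another 5 with several symbols were not used. The 10 members with further probe sets at or above 64 had 15 of these, and 13 gave the same sign of difference between clamped and 0 min kidneys.

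Values were taken as log2(intensity + 16). Genes with a mean at or above the 40th percentile of probe sets (log2 6.01) were tested, 12734 in all, with limma 3.58.1 in R 4.3.3 and Python 3.11.15. An additive model of clamp time and day gave 60 against 45 min, and also clamped against 0 min, for which the 2 clamp times were averaged. A model with 4 groups, clamped or not on each day, gave the other 2 tests and treats 45 and 60 min kidneys as alike. On all 6 arrays each of these fits has 2 residual degrees of freedom. The additive fit has fewer when an array is left out, and more with no day term. P-values are 2-sided and adjusted over all genes tested. The scripts were tested on simulated data with known changes.

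The members, gene lists, tests and naming rule were chosen with earlier results of these data known. Named with all arrays were the 12 members that are not dim with the largest absolute difference of clamped from 0 min, the 5 with the largest of 60 from 45 min, the 5 with the largest of day 3 from day 1 in clamped kidneys, and Mmp2, Mmp7, Mmp9, Mmp14 and Adam10. Of the partners, Timp1 and the 5 with the largest difference were named. Adam9, Adam15, Adam22, Adamts5, Adamts9, Adamts15, Adamtsl2, Mmp3 and Mmp8 were added after their values were seen. Alternatives were other pseudocounts (1 and 64), quantile normalization, other filters, averaged probe sets per gene, a prior variance that follows intensity, no day term, and leaving out each array. The number of arrays limits the precision.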

Additional observations from a re-analysis of the deposited data

Results flagged for a closer look

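For 5 of the 36 members that passed the filter, both clamped kidneys differed from the 0 min kidney in one direction on day 3 and in the opposite direction on day 1. The share of all genes tested was 14.1%, so the count of members is near the background. Mmp7 had the largest such difference. Both clamped kidneys were above the 0 min kidney on day 3 (65.8 and 74.6 against 27.3), and both were below it on day 1 (57.4 and 60.8 against 76.0). The change of the clamp effect, day 3 minus day 1, was 1.28 ± 0.31 for Mmp7 (SE; limma unadjusted p = 0.00915, adjusted p = 1). Mmp7 is dim, and its 0 min kidneys, with no clamp time, differ between the days more than its clamped kidneys do.

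Adam22 ran the other way, above the 0 min kidney on day 1 and below it on day 3, with a change of -1.04 ± 0.37 (SE; limma unadjusted p = 0.0372, adjusted p = 1). For Adamts9 the change was -0.67, for Mmp8 0.34 and for Adam9 0.08, and none of these reached an unadjusted p under 0.05 with limma.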

How the results depend on the processing

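For clamped against 0 min the number of genes called by limma was 75 with a prior variance that follows intensity, 1 with no day term, and 0 to 200 when each array was left out in turn, with 200 without the 45 min day 3 array. It was 0 under the other alternatives, and 0 under every alternative run for the remaining 3 contrasts. Members at least 2-fold higher at 45 min on day 3 were 3 after quantile normalization and 0 with a pseudocount of 64. With that pseudocount, 45 min on day 1 gave 3 higher and 0 lower, 60 against 45 min on day 1 gave 1 higher, and 0 min on day 3 against day 1 gave 0 higher and 1 lower. That last contrast gave 1 higher with the mean of probe sets. For 60 against 45 min, lower members were 2 on day 3 after quantile normalization and with a pseudocount of 1, and 1 on day 1 with a pseudocount of 1.

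Of the alternatives to 30 differences of named genes, 318 kept direction and side of the threshold, 7 passed it and 5 reversed. Adam10 became -0.20 with the mean of probe sets, through 1 dim probe set. Without 1 array, Mmp7 ranged from -0.29 to 0.99, and for day 3 against day 1 Mmp12 ranged from -0.19 to 1.25 and Adamts1 from -0.16 to 1.16, with -0.02 without 45 min day 1. In the contrast of day 3 with day 1, leaving out a clamped array leaves the days with unlike clamp times. The causes were not tested. The variance prior was tried on single genes after seeing the data. The replicate numbers pair no arrays, and the day that kidneys share is already a term of the additive model.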

Other observations

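Rhbdf2, a partner without a description above, is known for helping the sheddase Adam17, not a member here, to the cell surface. Rhbdf2 was higher than 0 min after 60 min and lower after 45 min on each day. On day 3 its log2 difference was -0.74 for 45 min and 2.02 for 60 min, and on day 1 it was -0.64 and 0.90. The syndecan Sdc1 differed by 0.03 and 1.79 on day 3, and by 0.01 and 0.59 on day 1, so its 60 min kidneys were the high ones too. Both genes were picked after their values were seen, and each value compares 1 array with another.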
